A study of Mus musculus with 4 samples.

Results

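The 7 genes Gabra2, Gabra3, Gabra4, Gabra5, Gabrb1, Gabrb2 and Gabrd encode subunits of the GABA-A receptor, and they were taken by their symbols from the 32285 genes of the deposited count tables. Transcripts were counted by Visium, a spatial assay that captures polyadenylated RNA from a tissue section on an array of barcoded spots and counts each captured molecule once by its unique molecular identifier (UMI). All 4 libraries were brain sections, 10 µm thick, from Nf1+/- mice, which lack 1 working copy of the neurofibromin gene in every cell; the colony was kept on a C57/BL6 background, the labels give no age, and sections of wild-type brain are not analysed here. The libraries are called sections 1 to 4. The labels do not say whether they came from separate animals, so n counts sections. The p-values rest on how the differences between groups of spots varied between sections, for the gene itself and partly for other genes. This variation may be partly technical.

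GABA-A receptors are chloride channels built of 5 subunits around a central pore, and they carry most fast inhibition in the brain. Most hold alpha and beta subunits together with a gamma or a delta subunit. The alpha subunit shapes affinity, kinetics and drug sensitivity, the beta subunit completes the GABA binding site, and receptors with delta sit outside synapses, where they often pair with alpha4 and answer ambient GABA. Alpha2 and alpha3 are mostly synaptic, and alpha5 is found largely outside synapses in the forebrain. A spot covers several cells, so fewer cells of a type and less RNA per cell cannot be told apart in any value given here.

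The 7 genes lay on 5 chromosomes of the mouse assembly GRCm38.p6 (RefSeq), the assembly that the build named in the submitters' notes, mm10, stands for. Gabra2 (chr5:70958392-71095849, minus strand), Gabra4 (chr5:71569734-71658308, minus) and Gabrb1 (chr5:71657921-72149572, plus) shared a cluster with Gabrg1. The 5′ ends of Gabra4 and Gabrb1 overlapped head to head by 388 bases. Gabra5 lay on chromosome 7 (chr7:57407669-57591016, minus). Gabra3 (chrX:72432676-72656919, minus) lay near Gabre and Gabrq, Gabrb2 (chr11:42419515-42632591, plus) lay near Gabra6, and Gabrd (chr4:155384979-155398098) lay apart from the other members.

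The RefSeq promoter table held windows for 6 of the 7 genes, all except Gabrd. The 250 bases before the annotated start are shown for Gabra3 and Gabra2. Gabra3 was the member whose level differed most between cortical and striatal spots below. Gabra2 was the member that differed between spots high in upper-layer and in deep-layer markers in every setting tried. Both strands were searched for 4 short motifs. The GC box, spelled GGGCGG, was in 32.7% of the 32851 windows of this length. The motif of the TATA box, spelled TATAAA, was in 12.4% of them, the E-box, spelled CACGTG, in 6.02%, and the cyclic AMP element, spelled TGACGTCA, in 1.55%. Capitals mark the matches, on either strand.
Gabra3, GRCm38.p6 chrX:72656920-72657169, minus strand: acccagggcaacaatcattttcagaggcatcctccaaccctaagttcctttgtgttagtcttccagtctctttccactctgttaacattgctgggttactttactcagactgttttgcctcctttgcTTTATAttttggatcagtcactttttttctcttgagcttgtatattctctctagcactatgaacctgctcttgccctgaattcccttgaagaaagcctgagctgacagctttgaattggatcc
Gabra2, GRCm38.p6 chr5:71095850-71096099, minus strand: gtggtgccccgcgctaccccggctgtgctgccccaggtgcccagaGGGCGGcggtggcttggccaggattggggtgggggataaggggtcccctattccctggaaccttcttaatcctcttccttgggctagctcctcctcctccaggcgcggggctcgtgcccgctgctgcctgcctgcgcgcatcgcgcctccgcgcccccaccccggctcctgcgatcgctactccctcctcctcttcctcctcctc

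The Gabra3 window shown was 42.4% G or C, had no CpG dinucleotide and held 1 match to the TATA box motif, on the opposite strand. The other Gabra3 window (chrX:72656808-72657057) overlapped it, was 39.2% G or C, also had no CpG and held the same match. The Gabra2 window was 70.0% G or C with 18 CpGs and 1 GC box. The medians over all windows were 52.4% and 6 CpGs. The Gabra4 window (chr5:71658309-71658558, inside the annotated span of Gabrb1) was 61.2% G or C with 12 CpGs and 2 GC boxes. The Gabra5 window (chr7:57510060-57510309, at a start inside the span of the gene) was 56.4% G or C with 9 CpGs and held none of the 4 motifs. Gabra3 and Gabra5, whose levels differed the same way between cortical and striatal spots, thus had windows of unlike base composition.

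Each section held 1435 to 2359 spots and 19261710 to 37002379 UMIs, with a median of 8862.5 to 15296.5 UMIs a spot; the 1 to 26 spots a section under 500 UMIs were left out. Any pair of sections shared 427 to 1989 barcodes, which name array positions and not cells. Spots were grouped in each section as the top 10% by the excess of a region gene over the count its spot total would give, and spots in several groups were dropped. This left 120 to 191 spots a section rich in Slc17a7 (the vesicular glutamate transporter of cortical neurons), 143 to 227 rich in Ppp1r1b (DARPP-32, of striatal projection neurons), 115 to 184 rich in Slc17a6 (the glutamate transporter of many subcortical neurons) and 138 to 215 rich in Mbp (myelin basic protein). The last Ppp1r1b-rich spot inside the threshold of section 1 held 1571 CPM (UMIs of a gene per 1000000 UMIs of the spot or sum) of Ppp1r1b and the first outside it 1715 CPM, since the excess also weighs depth. In section 3 the 229 spots taken for Slc17a6, before overlaps were dropped, outnumbered the 193 that held a Slc17a6 UMI. The last of them inside the threshold had an excess of -0.11 and 0 CPM of Slc17a6.

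The region labels were checked on other markers. All 6 striatal markers (among them Drd1, Adora2a, Rgs9, Pde10a and Rasd2) were highest in Ppp1r1b-rich spots in every section, at a summed 3278 to 3817 CPM. All 6 myelin genes were highest in Mbp-rich spots in every section. Of 6 cortical markers, 5 had their highest mean in Slc17a7-rich spots. Thalamic markers did not bear out the label subcortical: none of 6 was highest in Slc17a6-rich spots, and none was at 0. Their sum there was 40 to 66 CPM, against 33 to 47 CPM in Slc17a7-rich and 63 to 98 CPM in Mbp-rich spots. Other subcortical lists were mixed. The mean sum of 6 hypothalamic markers was highest in Slc17a6-rich spots (34.1 CPM, against 15.7 in Mbp-rich, 8.30 in Ppp1r1b-rich and 7.63 in Slc17a7-rich spots). Section 1 raised this mean, at 74.3 CPM against 12.3, 17.7 and 32.2 CPM in sections 2 to 4. In section 2 the Mbp-rich spots held 12.6 CPM. The mean sum of 3 septal markers was 53.8 CPM in Slc17a6-rich, 64.2 in Mbp-rich and 17.6 CPM in Slc17a7-rich spots. Its Slc17a6-rich values were 104, 36.9, 41.3 and 32.7 CPM. Slc17a6 itself was sparse, with a single UMI in 48 to 143 of the Slc17a6-rich spots a section and no UMI in 19 of 162 in section 3, and these spots held 222 to 626 CPM of Slc17a7. The 6 cortical markers summed to 173 to 369 CPM in them, against 391 to 478 in Slc17a7-rich and 54.5 to 94.5 CPM in Ppp1r1b-rich spots. Upper-layer markers had a mean sum of 413 CPM in Slc17a6-rich and 396 CPM in Slc17a7-rich spots, and deep-layer markers 163 and 325 CPM. The group thus also carried cortical markers, and its spots are called Slc17a6-rich and nothing more.

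Over whole sections 6 of the 7 genes were well measured, with 2991 to 8877 UMIs in all, and Gabrb2 was not, with 156. Gabra4 was at 85.1 ± 7.97 CPM (SD, n = 4 here and below), Gabrd at 84.8 ± 12.4, Gabra2 at 65.9 ± 5.03, Gabrb1 at 41.0 ± 3.66, Gabra3 at 35.9 ± 5.53, Gabra5 at 29.9 ± 2.74 and Gabrb2 at 1.52 ± 0.255 CPM. The assay reads transcript ends and its capture differs between genes, so each test compared a gene with itself between spots. The make-up given below sets different genes side by side and carries this limit.

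Gabra4 and Gabrd, the subunits that pair in extrasynaptic receptors, were both highest in Ppp1r1b-rich spots. Gabra4 (ENSMUSG00000029211) read 128, 140, 164 and 139 CPM in the Ppp1r1b-rich spots of sections 1 to 4, and 56.5, 81.2, 79.3 and 72.7 CPM in the Slc17a7-rich spots. Every striatal value lay above every cortical value. In edgeR's quasi-likelihood test with the section as a block, Gabra4 was lower in Slc17a7-rich than in Ppp1r1b-rich spots by a log2 fold change of -1.16 (SE 0.10, adjusted p = 3.64e-09), which is 2.23-fold. Gabrd (ENSMUSG00000029054) read 109, 144, 125 and 128 CPM in Ppp1r1b-rich spots and 77.3, 102, 72.4 and 61.0 CPM in Slc17a7-rich spots. Its log2 fold change was -0.87 (SE 0.11, adjusted p = 5.36e-07), and both genes were lower in 4 of 4 sections.

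Gabra3 and Gabra5 had the opposite pattern. Gabra3 (ENSMUSG00000031343) read 44.3, 58.4, 52.5 and 60.1 CPM in Slc17a7-rich spots and 14.4, 18.3, 12.2 and 10.5 CPM in Ppp1r1b-rich spots, so that the groups lay far apart. The log2 fold change was 1.76 (SE 0.16, adjusted p = 2.71e-09), or 3.39-fold. Gabra5 (ENSMUSG00000055078) read 38.5, 34.7, 49.9 and 46.6 CPM against 13.1, 16.4, 16.9 and 8.32 CPM. Its log2 fold change was 1.42 (SE 0.17, adjusted p = 3.43e-07), and both genes were higher in 4 of 4 sections. Gabra3 and Gabra5 were each lowest in the striatal group among the 4 groups by their mean, as the plot of levels by group shows.

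**Figure D1:**
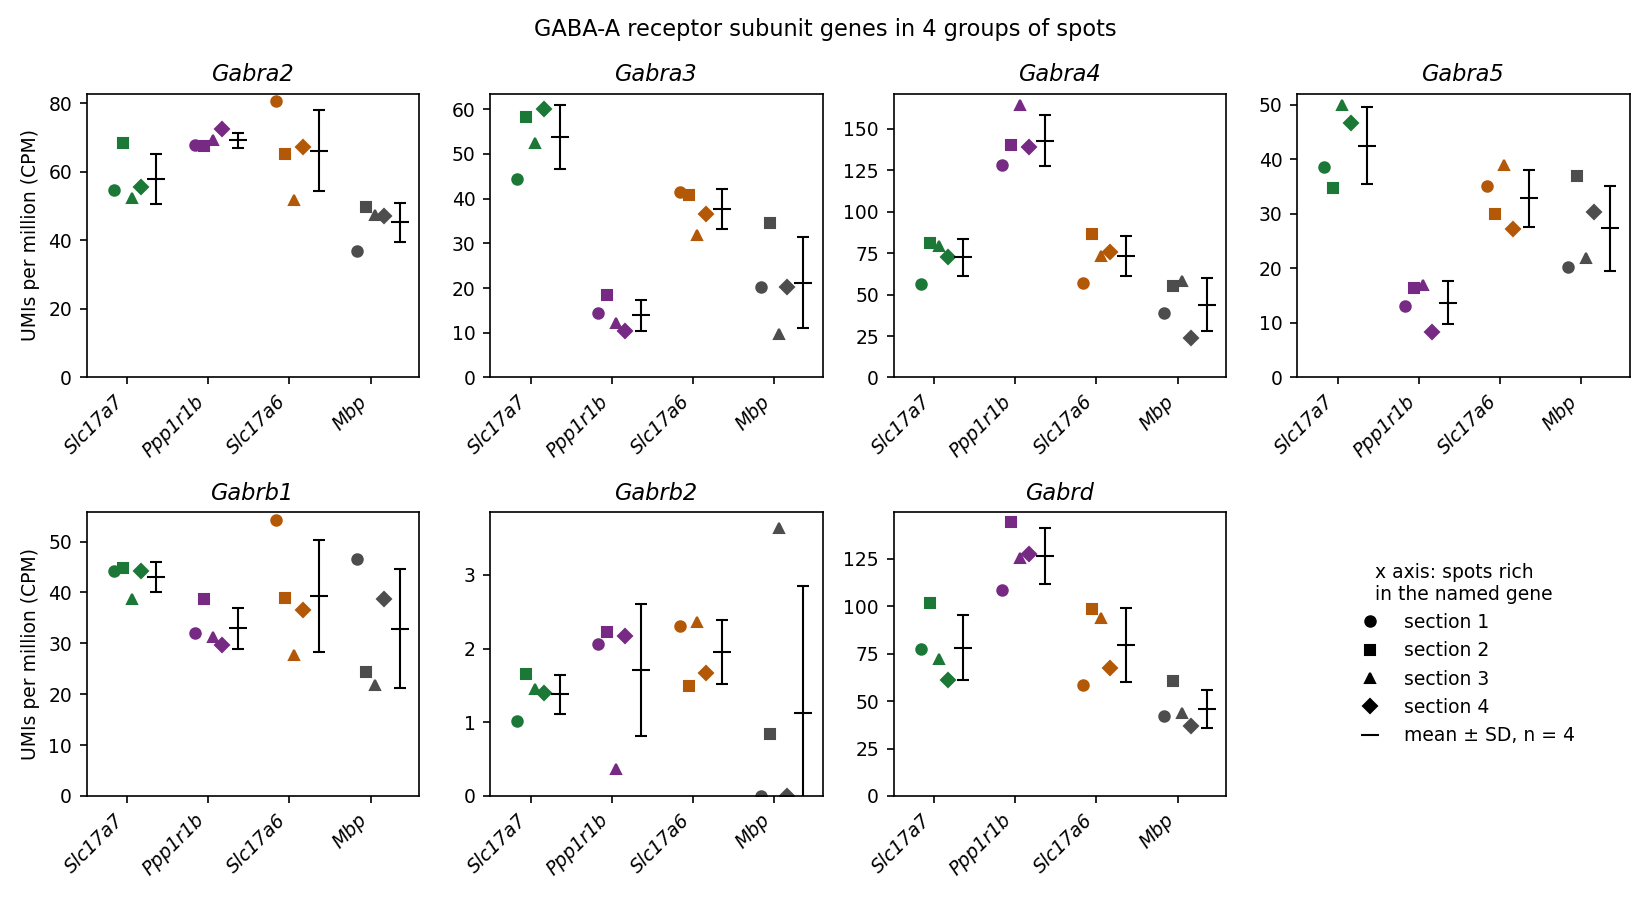
Levels of the 7 subunit genes in CPM (y axis from 0, a scale for each gene) in spots rich in Slc17a7, Ppp1r1b, Slc17a6 or Mbp. Symbols are the 4 sections and bars the mean ± SD; Gabra4 and Gabrd stand highest in Ppp1r1b-rich spots, where Gabra3 lies at 10.5 to 18.3 CPM, and the lower end of a Gabrb2 bar is hidden below 0.

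The other members moved less. Gabra2 (ENSMUSG00000000560) read 54.8, 68.5, 52.5 and 55.4 CPM in Slc17a7-rich spots and 67.7, 67.4, 69.3 and 72.4 CPM in Ppp1r1b-rich spots, and the groups overlapped through section 2. The fit called it lower in Slc17a7-rich spots (log2 fold change -0.42, SE 0.11, adjusted p = 0.00315), and scaling by total UMIs in place of TMM ended this call (-0.25, adjusted p = 0.0739). Gabrb1 (ENSMUSG00000029212) read 44.3, 44.9, 38.7 and 44.3 CPM against 32.0, 38.7, 31.3 and 29.7 CPM, and its log2 fold change of 0.20 did not pass the test (95% interval -0.08 to 0.48, adjusted p = 0.26); it did under total UMI scaling (0.37, adjusted p = 0.037) and with other markers of the regions (0.27, adjusted p = 0.0498). Its CPM was higher in Slc17a7-rich spots in 4 of 4 sections, and the groups were barely apart. Gabrb2 (ENSMUSG00000007653) had 16 UMIs in Slc17a7-rich and 22 in Ppp1r1b-rich spots over all sections, failed the filter on low counts and was not tested.

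Of the 6 members tested, 5 were called between Slc17a7-rich and Ppp1r1b-rich spots, beside 38.3% of all 12176 genes tested. By direction, 2 were higher in Slc17a7-rich spots (18.9% of all genes) and 3 lower (19.4%); under total UMI scaling the split over all genes moved from 2307 higher and 2361 lower to 3561 higher and 1311 lower, and the median of all genes by 0.17 on the log2 scale. The median size of the log2 fold change was 1.01 over the 6 members and 0.28 over all genes. The gap was narrower in other pairs of groups. Ppp1r1b-rich spots gave 0.95 and 0.26 against Slc17a6-rich spots, and 0.81 and 0.39 against Mbp-rich spots. Slc17a6-rich against Mbp-rich spots gave 0.53 and 0.33. Slc17a7-rich spots gave 0.51 and 0.39 against Mbp-rich spots, and 0.16 and 0.15 against Slc17a6-rich spots. Gabra4, Gabrd, Gabra3 and Gabra5 kept their direction and their call in all 14 alternative settings, with log2 fold changes of -1.23 to -0.99, -0.97 to -0.66, 1.59 to 1.93 and 1.23 to 1.64.

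Mbp-rich spots, which were shallower (median 3595.5 to 7490 UMIs a spot against 12498 to 19966.5 in the Slc17a7-rich and Ppp1r1b-rich groups), had the lowest mean levels of Gabra4, Gabrd and Gabra2 among the 4 groups. Gabra4 read 38.6, 55.5, 58.3 and 23.6 CPM there and Gabrd 42.1, 60.5, 43.7 and 37.1 CPM, all below the Ppp1r1b-rich values. Against Mbp-rich spots, Ppp1r1b-rich spots had more Gabra4 (log2 fold change 1.69, SE 0.14, adjusted p = 8.52e-10), Gabrd (2.82-fold, SE of the log2 value 0.14) and Gabra2 (log2 fold change 0.67, SE 0.14), and less Gabra5 (-0.94, SE 0.23, adjusted p = 0.00218). Taking the top 5% of spots (-0.72, adjusted p = 0.0865) or other markers of the regions (-0.64, adjusted p = 0.0518) ended the Gabra5 call. Gabra3 was called lower in Ppp1r1b-rich than in Mbp-rich spots (-0.60, SE 0.23, adjusted p = 0.042), but section 3 went the other way, at 12.2 against 9.71 CPM, and the call was lost in 10 of 14 alternatives, among them without section 2 (-0.36, adjusted p = 0.344), without section 1 (0.0564) or without section 4 (0.114). In all, 5 of 6 members were called here, beside 39.8% of all genes.

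Against Slc17a7-rich spots, Mbp-rich spots had less Gabra3 (log2 fold change of Slc17a7-rich over Mbp-rich spots 1.16, SE 0.19, adjusted p = 3.2e-05), Gabrd (0.63, SE 0.15) and Gabra4 (0.54, SE 0.15). These 3 of 6 members stood beside 40.5% of all genes called in either direction, 2379 of them higher and 2550 lower in Slc17a7-rich spots. Gabra5 fell just outside (0.48, SE 0.20, adjusted p = 0.0583) and passed in 7 of 14 alternatives, with log2 fold changes of 0.31 to 0.88 over all 14. Without section 2, the only section in which it was higher in the Mbp-rich spots, the value was 0.84 (adjusted p = 0.00483). In the top 20% of spots the calls on Gabrd (0.32, adjusted p = 0.0658) and Gabra4 (0.33, adjusted p = 0.051) were lost, and that on Gabra4 also with other markers of the regions (0.37, adjusted p = 0.0509). Gabrb1 did not pass (0.29, adjusted p = 0.198) except without section 1 (0.53, adjusted p = 0.0342). The Mbp-rich spots also held 373 to 564 CPM of 4 astrocyte markers against 141 to 181 CPM in Slc17a7-rich spots, and the part of cell mixture in these differences was not tested.

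Between Slc17a6-rich and Slc17a7-rich spots Gabra3 alone of 6 members was called (5.13% of all genes), at 41.5, 40.8, 31.8 and 36.6 CPM against 44.3, 58.4, 52.5 and 60.1 CPM. This call (log2 fold change 0.48, SE 0.14, adjusted p = 0.0481) was lost in 11 of 15 alternatives, among them leaving out any section (adjusted p of 0.0583 to 0.21). Gabra2 was not called (log2 fold change of Slc17a7-rich over Slc17a6-rich spots -0.21) and stayed so in 14 of 15 alternatives. The remaining alternative called it lower in Slc17a7-rich spots, and the values ran from -0.58 to -0.07 over all 15. Against Ppp1r1b-rich spots the Slc17a6-rich spots had less Gabra4 (log2 fold change of Ppp1r1b-rich over Slc17a6-rich spots 1.10, SE 0.11) and Gabrd (0.81, SE 0.11), and more Gabra5 (-1.09, SE 0.19) and Gabra3 (-1.28, SE 0.17). These 4 of 6 members stood beside 32.1% of all genes. Against Mbp-rich spots 4 of 6 members were called, beside 29.9% of all genes in either direction (1761 of 12176 higher and 1875 lower). All 4 were higher in Slc17a6-rich spots, namely Gabrd (0.69), Gabra3 (0.68), Gabra4 (0.60) and Gabra2 (0.46). The Gabra2 call held in 11 of 15 alternatives. It was lost, among others, without section 1 (0.25, adjusted p = 0.249), and the Gabra3 call was lost without section 1 (0.0697) or section 3 (0.0866). In the top 20% of spots Gabra3 alone passed, with adjusted p of 0.355 for Gabrd, 0.117 for Gabra4 and 0.684 for Gabra2. With other markers of the regions Gabra4 did not pass (0.16, adjusted p = 0.531) and Gabrd turned (-0.32, adjusted p = 0.0539). When the groups were chosen by their 6 check markers in place of the region genes, Gabrd was higher in the cortical than in the thalamic-marker spots (log2 fold change 0.79, adjusted p = 4e-07), so the values of this group depend on how it is marked.

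**Figure D2:**
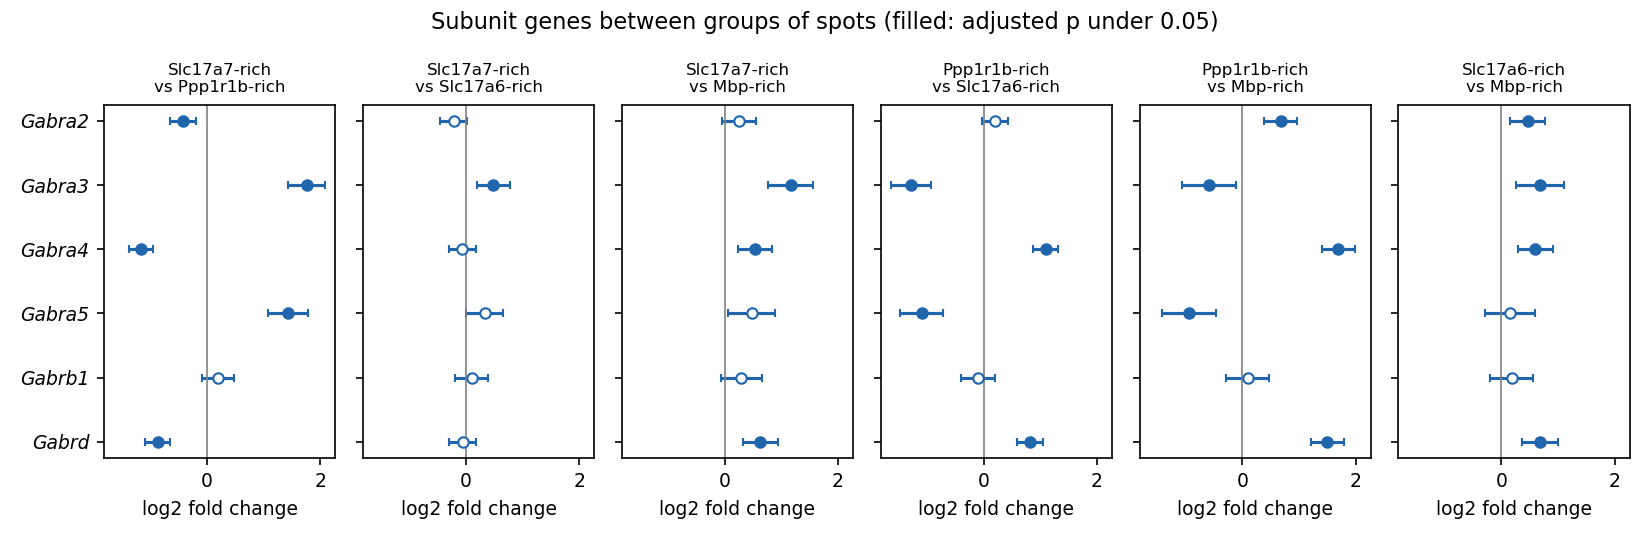
Log2 fold changes (x axis) of the 6 tested subunit genes in the 6 pairs of spot groups, the first-named group over the second, with 95% intervals from edgeR. Filled points have an adjusted p under 0.05; Gabra4 and Gabrd fall left of 0 and Gabra3 and Gabra5 right of it in the first panel, and Gabrb1 is open in every panel.

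Ordered by mean, Gabra4 ran from Ppp1r1b-rich (143 ± 15.3 CPM) to Slc17a6-rich (73.1 ± 12.1), Slc17a7-rich (72.4 ± 11.2) and Mbp-rich spots (44.0 ± 16.1). Gabrd had the same order, at 126 ± 14.6, 79.7 ± 19.5, 78.1 ± 17.2 and 45.9 ± 10.2 CPM. In both genes the middle pair did not differ beyond its spread. Gabra3 ran from Slc17a7-rich (53.8 ± 7.14) to Slc17a6-rich (37.7 ± 4.45), Mbp-rich (21.1 ± 10.2) and Ppp1r1b-rich spots (13.9 ± 3.40). Gabra5 had that order too, at 42.4 ± 7.06, 32.8 ± 5.24, 27.3 ± 7.82 and 13.7 ± 3.96 CPM, and its first 3 groups overlapped their neighbours. Gabrb1 lay between 32.9 and 43.0 CPM by its means, but its Mbp-rich values spread more widely, at 46.5, 24.4, 21.9 and 38.8 CPM. It was called in none of the 6 pairs by edgeR at the settings used here. Other markers of the regions gave a call between Ppp1r1b-rich and Slc17a6-rich spots (-0.53, adjusted p = 0.00076) and between Slc17a6-rich and Mbp-rich spots (0.43, adjusted p = 0.0304). Gabrb2 was at 1.12 to 1.96 CPM by its means, with no UMI in the Mbp-rich spots of sections 1 and 4, which allows up to 2.63 and 5.06 CPM.

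The make-up of the 7 genes followed from these levels. Gabra4 and Gabrd together made 67.2% ± 1.98 of the UMIs of the 7 genes in Ppp1r1b-rich spots, with a range of 64.7% to 69.0% over sections. Elsewhere they made 43.0% ± 3.18 (Slc17a7-rich), 46.1% ± 7.82 (Slc17a6-rich) and 41.0% ± 7.92 (Mbp-rich), and no section of these groups passed 52.2%. Gabra3 and Gabra5 together made 6.85% ± 1.43 in Ppp1r1b-rich spots and 27.7% ± 3.35 in Slc17a7-rich spots, and the 2 groups lay apart in every section. The shares of Gabra2 were close in these groups, at 17.3% ± 1.41 and 16.6% ± 1.10. The sum of the 7 genes was 401 ± 28.3 CPM in Ppp1r1b-rich, 349 ± 31.0 in Slc17a7-rich, 331 ± 21.5 in Slc17a6-rich and 218 ± 30.0 CPM in Mbp-rich spots. These shares and sums leave out the 12 other subunit genes. Those summed to 395 ± 25.1 CPM in Ppp1r1b-rich, 684 ± 43.2 in Slc17a7-rich, 754 ± 121 in Slc17a6-rich and 307 ± 65.0 CPM in Mbp-rich spots. Unlike the sum of the 7, their sum was higher in Slc17a7-rich than in Ppp1r1b-rich spots. The shares are given as a description with no test, and the exact paired sign-flip test over 4 sections could not reach a p of 0.05. Capture differs between genes, so a share does not measure the true proportion of a transcript. The Mbp-rich shares rest on 117 to 312 UMIs a section.

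**Figure D3:**
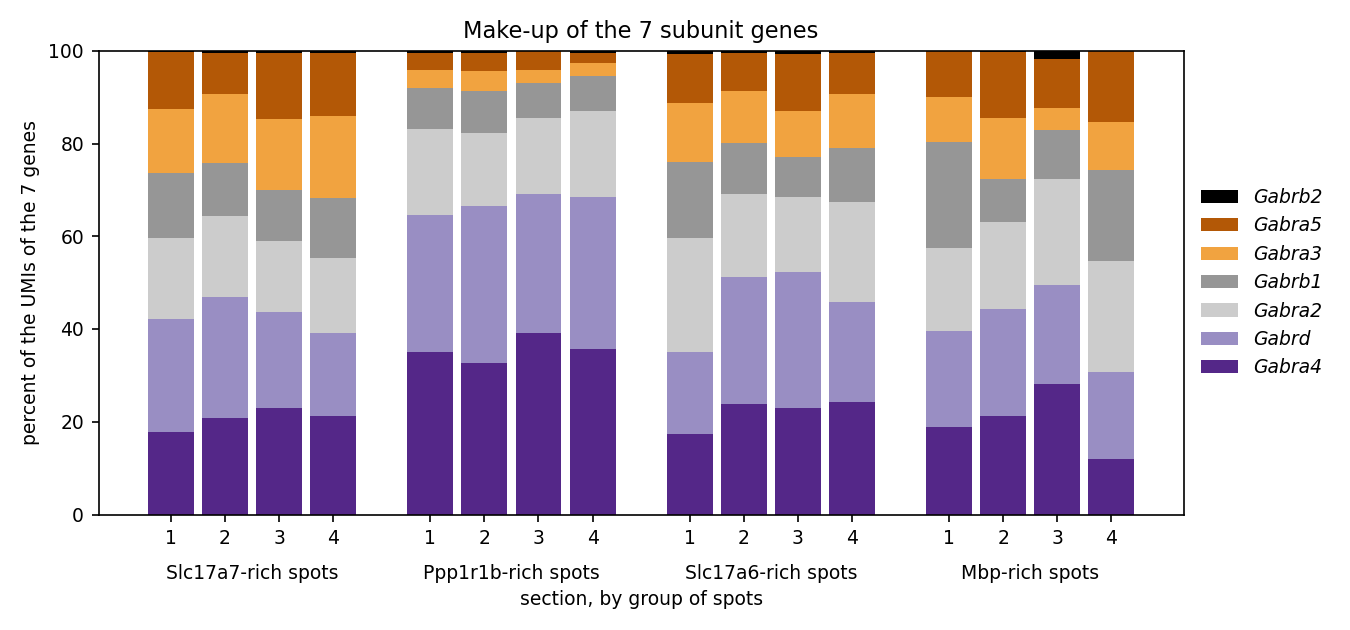
Share of each gene among the UMIs of the 7 subunit genes (y axis, percent), for the 4 sections of each group of spots. Gabra4 and Gabrd (purple) fill 64.7% to 69.0% of the bars in Ppp1r1b-rich spots, and Gabra3 and Gabra5 (orange) 4.82% to 8.12% of them.

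Of the 12 other GABA-A subunit genes, 5 passed the filter between Slc17a7-rich and Ppp1r1b-rich spots: 2 were higher in Slc17a7-rich spots, 1 was lower and 2 did not pass the test. Gabrg3, a gamma subunit, was lower (-1.10, SE 0.21). Gabra6, Gabrp and Gabrr3 had no UMI in any of the 4 groups. Gabrr2, a rho subunit, was not tested; 34 of its 56 UMIs in the 4 groups lay in Mbp-rich spots.

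Of 9 genes that make, pack and clear GABA 8 were tested, 5 were lower in Slc17a7-rich than in Ppp1r1b-rich spots, 1 was higher and 2 did not pass. The vesicular GABA transporter Slc32a1 (-1.98, SE 0.12), the GABA-making enzymes Gad2 (-1.76, SE 0.12) and Gad1 (-1.34, SE 0.09) and the GABA-degrading Abat (-1.20, SE 0.10) were lower, and the astrocytic transporter Slc6a11 was higher (0.50, SE 0.16). Of 8 scaffold and partner genes, 4 were lower, 1 higher and 3 did not pass: gephyrin (Gphn, -0.65, SE 0.12), which anchors receptors at synapses, was lower, and Iqsec3, a gephyrin partner, was higher (1.20, SE 0.16). Of 4 GABA-B receptor and chloride transporter genes, Gabbr2 was higher (2.08, SE 0.13) and 3 did not pass, among them Gabbr1 (-0.15, adjusted p = 0.174), its partner in the GABA-B receptor. The median log2 fold changes of the 4 lists were 0.07, -0.77, -0.22 and 0.03 against -0.03 over all genes.

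Spots from anywhere in a section were next grouped by 6 upper-layer and 6 deep-layer markers. They were not limited to the cortex, so a group can hold other regions. The 6 upper-layer markers summed to 581 to 1010 CPM in upper spots and 149 to 234 CPM in deep spots. Gabra2 was higher in upper-layer-marker spots, at 84.2, 79.6, 76.6 and 77.1 CPM against 53.7, 55.0, 44.8 and 46.5 CPM. The groups did not overlap, and the log2 fold change was 0.65 (SE 0.09, adjusted p = 0.00124), higher in 4 of 4 sections. Gabra5 was lower, at 31.7, 21.7, 42.2 and 24.7 CPM against 53.2, 32.7, 40.2 and 49.5 CPM, with section 3 the exception. The call on its log2 fold change of -0.56 (SE 0.15, adjusted p = 0.0401) was lost in 5 of 11 alternatives. These were leaving out section 2 (-0.53, adjusted p = 0.191) or section 4 (-0.44, adjusted p = 0.234), no section block (-0.57, adjusted p = 0.18), DESeq2 (-0.57, adjusted p = 0.165) and the top 20% of spots (-0.31, adjusted p = 0.243). These were 2 of 6 members, beside 9.34% of 11635 genes. Gabrd did not pass (0.32, adjusted p = 0.0913) but did in 4 of 11 alternatives, which were leaving out section 1 (0.33, adjusted p = 0.0207), the top 5% of spots (0.56, adjusted p = 0.00863), no filter on low counts (0.33, adjusted p = 0.017) and the setting described next, and Gabra3 (0.18), Gabra4 (0.07) and Gabrb1 (-0.08) did not pass.

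The deep-layer-marker spots, however, held 730 to 1624 CPM of the 6 striatal markers, against 277 to 960 CPM in the upper spots, and Gabra4 and Gabrd were high in striatal spots. The comparison was therefore repeated without spots that had an excess of Ppp1r1b, a setting chosen after the data were seen, which left 257 to 528 CPM of striatal markers in deep and 267 to 554 CPM in upper spots. Deep spots still held more of the 6 myelin genes, at 1640.5 to 2158 CPM against 567 to 1112 CPM, and the part of myelin in these differences was not tested. The cut took deep spots from 138, 234, 218 and 143 to 102, 148, 138 and 126 in sections 1 to 4. Upper spots went from 138, 234, 218 and 143 to 95, 231, 210 and 142, so sections 2 to 4 lost mainly deep spots. Then 4 of 6 members were called, beside 13.0% of all genes. All 4 had also differed between Slc17a7-rich and Ppp1r1b-rich spots, so a cut by Ppp1r1b is not independent of their levels and these calls are no separate support. Gabra2 (log2 fold change 0.87, SE 0.11), Gabrd (0.69, SE 0.10, adjusted p = 6.05e-05) and Gabra4 (0.49, SE 0.09, adjusted p = 0.000921) were higher in upper-layer-marker spots, and Gabra5 (-0.85, SE 0.14) was lower. Gabra4 read 73.6, 92.7, 83.5 and 103 CPM in the upper and 52.6, 65.5, 66.8 and 68.0 CPM in the deep spots, which did not overlap. Gabrd read 79.2, 127, 92.5 and 99.7 CPM against 63.0, 75.1, 59.3 and 50.3 CPM. Gabra5 read 31.6, 21.7, 42.8 and 24.8 CPM against 61.8, 43.7, 52.5 and 56.0 CPM, now apart in every section, and Gabra3 differed little (-0.08, 95% interval -0.30 to 0.13).

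**Figure D4:**
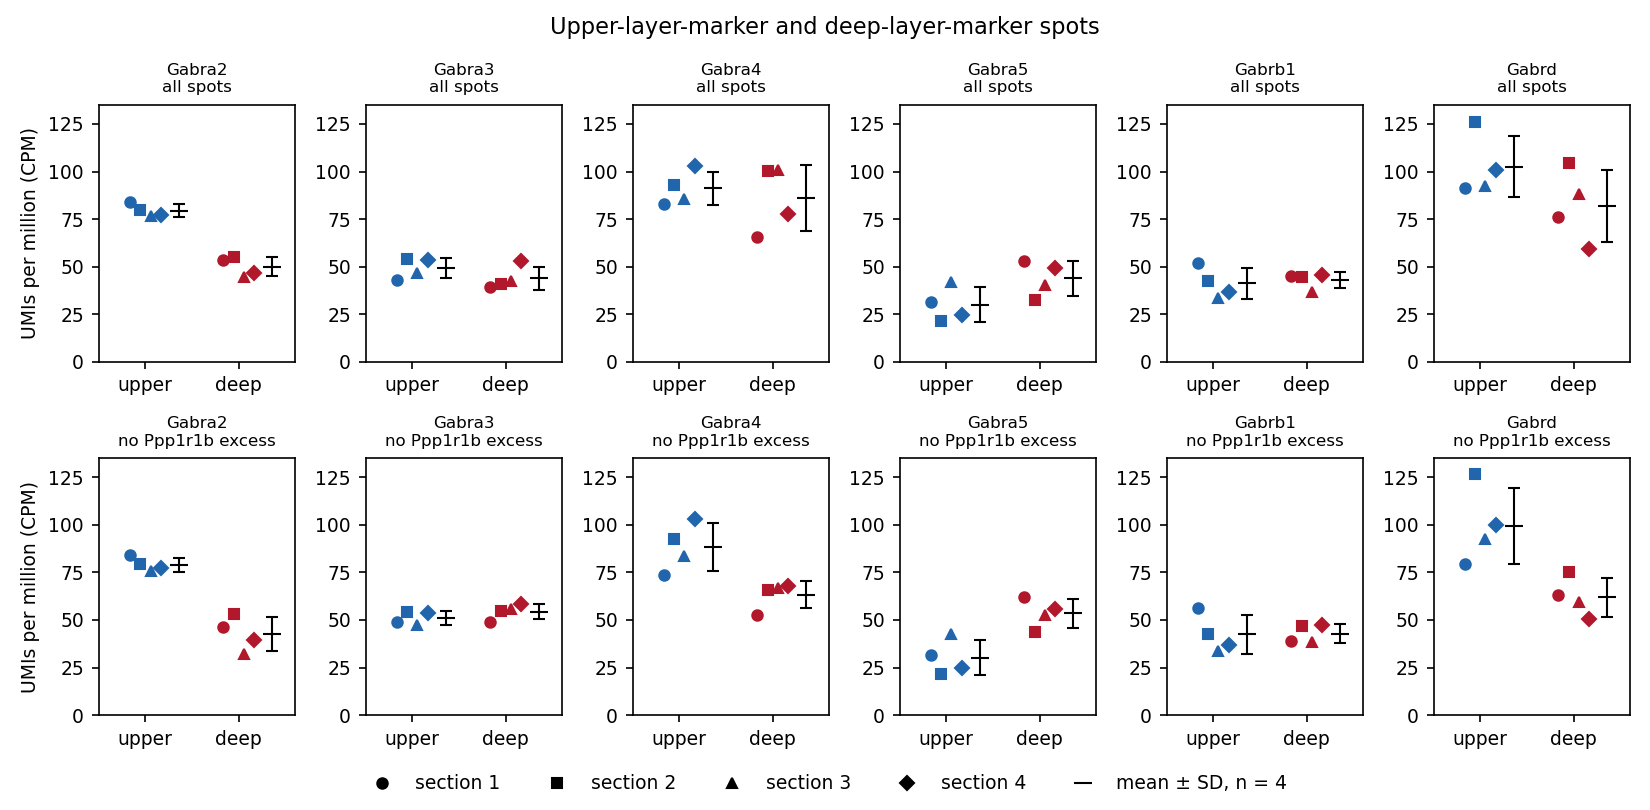
Levels (CPM, y axis from 0) of 6 subunit genes in upper-layer-marker and deep-layer-marker spots, in all such spots (top) and without spots that had an excess of Ppp1r1b (bottom). Symbols are sections 1 to 4 and bars the mean ± SD; in the bottom row Gabra4 ranges from 73.6 to 103 CPM in upper and from 52.6 to 68.0 CPM in deep spots.

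Among the other genes of the pathway, in all layer-marker spots and so with the striatal markers uneven between the groups, 2 of the 5 other subunit genes tested were higher in upper-layer-marker spots and 3 did not pass. The neuronal chloride exporter Slc12a5 (0.53, SE 0.07) and Gabbr2 (0.46, SE 0.12) were higher, the chloride importer Slc12a2 (-0.56, SE 0.12) was lower, and none of the 8 scaffold and partner genes passed.

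The study concerns the oligodendrocyte precursor cell (OPC), a glial cell that receives GABAergic input and carries GABA-A receptors. Spots in the top 10% by 8 OPC markers (377 to 461 CPM of these markers against 78 to 105 CPM in all other spots) were compared with the rest. None of the 7 members was called by edgeR at the settings used here, nor any of the 6 with an adjusted p by DESeq2, beside 5.93% of 14267 genes, and by either tool only Gabrd had an unadjusted p under 0.05. Gabrd read 61.4, 96.9, 75.4 and 65.7 CPM in OPC-marker-high spots and 73.9, 103, 84.2 and 82.4 CPM in the others, lower in 4 of 4 sections (log2 fold change -0.19, SE 0.06, adjusted p = 0.0864). It was called lower by edgeR in 2 of 10 alternatives, the top 20% of spots (-0.23, adjusted p = 0.014) and no filter on low counts (-0.23, adjusted p = 0.0163). Gabrb1 read 47.8, 42.5, 42.3 and 46.0 CPM against 44.0, 42.0, 35.2 and 41.2 CPM, higher in 4 of 4 sections (0.12, 95% interval -0.04 to 0.29, adjusted p = 0.488). The intervals of the 6 well-measured members lay between -0.32 and 0.29, while that of Gabrb2 ran from -0.61 to 1.07. The OPC-marker-high spots also held 1715 to 3088 CPM of the 6 myelin genes against 1272 to 2099 CPM, and the part of this in the Gabrd value was not tested. Of 9 GABA synthesis and uptake genes, 8 were tested and 4 were higher, namely Gad2 (0.28, SE 0.05), Slc32a1 (0.21, SE 0.05), Slc6a11 (0.38, SE 0.09) and Abat (0.16, SE 0.05). The same spots held more of the septal (43.8 to 87.2 against 31.9 to 57.3 CPM), hypothalamic (15.1 to 65.6 against 11.7 to 37.9 CPM) and astrocyte markers (191 to 289 against 179 to 212 CPM), each in 4 of 4 sections, and their part in these differences was not tested. Of the remaining lists, Rdx, which encodes radixin, an anchor of alpha5 receptors (0.31, SE 0.09), was higher and Gabbr2 (-0.34, SE 0.07) was lower. Slc17a7 was also lower in OPC-marker-high spots in each section, at 128, 377, 298 and 351 CPM against 361, 524, 468 and 495 CPM. The part of fewer cortical neurons in these values was not tested.

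The genes most like each member were taken by the correlation of log2(CPM + 1) over the 16 sums of spots, after the mean of each section was subtracted, among 8271 genes. The sums share sections and differ in depth, so these are descriptions. Gabra4 was closest to Ppp3ca, a calcineurin subunit (Pearson r = 0.983, Spearman rho = 0.918), Ramp1 (0.978) and Ngef (0.976). Gabrd was closest to Gucy1b1, a subunit of soluble guanylate cyclase (0.960), Nus1 (0.958) and Asic1 (0.958). Gabra3 was closest to Doc2a, a calcium sensor of vesicle release (0.976), Cnrip1 (0.972) and Khdrbs3 (0.970), and Gabra5 to Serf1 (0.960), Rab8b (0.955) and Clip3 (0.949). Gabra2 (Cd3eap, 0.903; Crlf2, 0.886; Ehmt2, 0.886) and Gabrb1 (Acot9, 0.886; Maged1, 0.867) had weaker matches. Gabrb2, with 58 UMIs in these sums, was not compared.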

How the data were processed

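Per the file headers the authors made the deposited matrices with Space Ranger 1.3.1, and the values are raw UMI counts per gene and spot; the submitters' notes name the build mm10. Spots were counted where they held at least 500 UMIs, and UMIs were summed per section and group of spots. Genes that passed filterByExpr were tested with edgeR 4.0.16 (R 4.3.3; TMM, glmQLFit and glmQLFTest, Benjamini-Hochberg over all genes tested, threshold 0.05), with the section as a block: 16 sums for the 6 pairs of region groups, and 8 each for layers and OPC markers. DESeq2 1.42.0 was an alternative. Spots of a section come from 1 piece of tissue, which pairs the groups; over genes, the departures of sums from their group mean correlated at 0.14 to 0.53 within a section. On simulated counts of the Slc17a7-rich and Ppp1r1b-rich comparison (12059 genes), 172 of 200 genes changed by 1 on the log2 scale were recovered, and 10 unchanged genes were called. The simulation gave every gene the same spread and changed no other genes, unlike the data, so it does not measure recovery in the real fit. Genes were named by rule: the members, the region genes, the 3 most alike genes of each member (at least 500 UMIs), and fixed pathway lists; some genes of these lists are not reported here. Members, lists and tests were chosen with earlier results of these data known. Depth limits the sums, since intervals cover only how the differences between groups varied over 4 sections. In edgeR the spread of a gene was partly drawn from other genes, and the 6 pairs of region groups shared 1 estimate of it. Spot positions and images were not used here. Promoter sequences came from RefSeq (GRCm38.p6).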

Additional observations from a re-analysis of the deposited data

Results flagged for a closer look

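Of 63 sets of 4 section values, 4 held a section far from the other 3, and chance gives about 1 in 20. Gabrb1 in Slc17a7-rich spots was 38.7 CPM in section 3 and 44.3 to 44.9 CPM in the others, and in deep-layer-marker spots it was 36.5 CPM in section 3 and 44.9 to 45.5 CPM in the others. Gabrb2 in Ppp1r1b-rich spots was 0.368 CPM in section 3 and 2.06 to 2.23 CPM in the others. Gabrb2 in OPC-marker-high spots was 3.37 CPM in section 4 and 1.26 to 1.51 CPM in the others. The Gabrb2 values rest on few UMIs.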

How the results depend on the processing

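Counts of genes called moved by over 1.5 times in 4 of the 8 comparisons. Between Slc17a7-rich and Slc17a6-rich spots the count was 625, against 3378 with other markers of the regions, 1032 with no filter on low counts and 255 with at least 2 Slc17a6 UMIs a spot, a setting chosen after the data were seen, and it ranged from 124 to 615 when a section was left out. Between Slc17a6-rich and Mbp-rich spots it was 3636, against 2212 in the top 20% of spots. Between upper-layer-marker and deep-layer-marker spots it was 1087, against 1671 with no filter and 491 by DESeq2, and 368 without section 4 to 2148 without section 1. For OPC-marker-high spots it was 846, against 388 in the top 5% and 356 by DESeq2, and 516 to 844 with a section left out.

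The section was the block that pairs the groups. Without this replicate block the 3 counts were 115, 526 and 16 in place of 625, 1087 and 846, and 3 calls on members were lost, given by Gabra3 (Slc17a7-rich against Slc17a6-rich, adjusted p = 0.221; Ppp1r1b-rich against Mbp-rich, 0.0667) and Gabra5 (layers, 0.18). No other call on a member changed.

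Of 657 member fold changes under alternatives, 565 kept direction and side of the threshold, 22 passed it, 41 lost it and 29 turned. Between Slc17a7-rich and Slc17a6-rich spots, Gabrd (-0.05) was 0.11 in the top 20%, 0.000135 with 1 threshold for all sections, 0.79 with other markers and -0.17 to 0.046 with a section left out, Gabra4 (-0.06) was 0.0083 in the top 20% and 0.20 with other markers, and Gabrb1 (0.11) was -0.26 with other markers. Between Ppp1r1b-rich and Slc17a6-rich spots, Gabra2 (0.21) was -0.30 with other markers and Gabrb1 (-0.09) was -0.18 to 0.078 with a section left out. Gabrb1 between Ppp1r1b-rich and Mbp-rich spots (0.09) was -0.16 in the top 20%, -0.090 with 1 threshold, -0.11 with other markers and -0.13 to 0.35 with a section left out. Between Slc17a6-rich and Mbp-rich spots, Gabrd (0.69) was -0.32 with other markers, Gabrb1 (0.19) was -0.048 in the top 20%, and Gabra5 (0.15) was -0.024 in the top 20% and -0.035 to 0.45 with a section left out. Between upper-layer-marker and deep-layer-marker spots, Gabra4 (0.07) was -0.086 in the top 20% and -0.032 to 0.17 with a section left out, Gabrb1 (-0.08) was 0.056 in the top 20%, and Gabra3 (0.18) was -0.084 without spots with an excess of Ppp1r1b. In OPC-marker-high spots, Gabra2 (0.04) was -0.11 in the top 5% and -0.0047 with no filter, Gabra3 (-0.02) was 0.16 in the top 5% and -0.056 to 0.025 with a section left out, and Gabrb2 (0.23) was -0.11 to 0.54 with a section left out. The cause was not tested.

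Shares moved by over 1 SD in 14 of 287 cases. With other markers, Slc17a6-rich spots had 28.6% Gabra2, 9.95% Gabra3, 15.6% Gabrb1, 0.162% Gabrb2 and 15.1% Gabrd, Mbp-rich spots 24.8% Gabrd and Slc17a7-rich spots 0.629% Gabrb2. In the top 20% the Slc17a6-rich spots had 13.1% Gabra3 and 0.79% Gabrb2, and in the top 5% the Ppp1r1b-rich spots had 0.693% Gabrb2 and the Mbp-rich spots 24.8% Gabra2. With 1 threshold the Mbp-rich spots had 24.6% Gabra2 and 18.5% Gabrd, and ranking by CPM gave 0.332% Gabrb2 in Slc17a7-rich spots.

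Total UMI scaling moved the split of higher and lower calls from 315 and 310 to 420 and 241 (Slc17a7-rich over Slc17a6-rich), from 2379 and 2550 to 3259 and 2085 (Slc17a7-rich over Mbp-rich), from 1883 and 2031 to 1207 and 2991 (Ppp1r1b-rich over Slc17a6-rich) and from 1761 and 1875 to 2340 and 1563 (Slc17a6-rich over Mbp-rich). The shallow Mbp-rich sums and the 156 UMIs of Gabrb2 also limit those values.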
